A study of Mus musculus with 17 samples.

Results

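Transcript levels of 9 genes of glycogen metabolism were examined in mouse kidney, out of 35971 genes for which the deposited tables hold transcripts. The genes were taken by name (Ugp2, Gys1, Gys2, Gbe1, Pygb, Pygl, Gyg, Ppp1r3c and Stbd1). The transcripts of each gene were summed in all 17 libraries. All 9 genes passed the filter on low counts, which kept 16995 genes, and the lowest count of any of them in a library was 8 (Gys2).

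Kidney RNA of 17 mice was sequenced as stranded mRNA libraries. Every mouse carried lsl-PRCC-TFE3 KI, an allele from which the chimeric transcription factor PRCC-TFE3 is made once Cre recombinase has removed a stop cassette. Cre was driven by KSP, the promoter of Cadherin 16 (Cdh16), which is active in kidney tubule epithelium, so cells outside that lineage should keep the cassette. The groups were 4 Cre(−) mice without the recombinase, of which replicates 1 and 2 carried HIF1a f/f and the other two no flox allele, 3 PRCC-TFE3 KI mice with KSP-Cre and no flox allele, 4 PRCC-TFE3 KI/Hif1α KO mice (HIF1a f/f with KSP-Cre), 3 PRCC-TFE3 KI/Hif2α KO mice (HIF2a f/f with KSP-Cre), and lastly 3 mice called PRCC-TFE3 KI/Hif1α/Hif2α DKO, which carried both flox alleles and KSP-Cre. PRCC-TFE3 KI mice with intact Hif genes are called KI below and the knockout groups Hif1α KO, Hif2α KO and DKO, and the ages of the sequenced mice are not given in the labels. Library totals ranged from 16504419 to 24668827 expected counts. No library batch is stated, and library numbers largely follow the groups, so library order and genotype cannot be told apart.

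Glycogen is a branched polymer of glucose held in the cytoplasm as a store. Glucose 1-phosphate is activated to UDP-glucose, glycogenin starts a chain by attaching glucose to itself, glycogen synthase lengthens the chain and the branching enzyme moves pieces of it to new branch points. Glycogen phosphorylase releases glucose 1-phosphate again, and targeting subunits bring protein phosphatase 1 to the particle, where it activates the synthase and inactivates the phosphorylase. Glycogen storage is a familiar feature of clear cells in renal tumors, and several genes of the pathway are known targets of hypoxia-inducible factors in other cells.

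Promoter sequence is given for 3 of the genes, since it is the sequence on which PRCC-TFE3 or the hypoxia-inducible factors could act: of the 9 genes Ugp2 had the largest fitted rise in KI kidneys, within 1 SE of that of Gyg, Pygl the largest fall after Gys2, which is named only, and Ppp1r3c is the only one with a CACGTG among these windows. The sequences are from RefSeq (GRCm38.p6), on the strand of the gene and 5′ to 3′, up to 250 bases before the annotated start, without the 49 bases of the Ppp1r3c window that GENCODE puts in an exon. Capitals mark matches, on either strand, to CACGTG (the core bound by TFE3 and its relatives), TCACGTG or TCATGTG (the M-box form) and ACGTG or GCGTG (the core bound by hypoxia-inducible factors).
Ugp2, chr11:21371268-21371517, minus strand: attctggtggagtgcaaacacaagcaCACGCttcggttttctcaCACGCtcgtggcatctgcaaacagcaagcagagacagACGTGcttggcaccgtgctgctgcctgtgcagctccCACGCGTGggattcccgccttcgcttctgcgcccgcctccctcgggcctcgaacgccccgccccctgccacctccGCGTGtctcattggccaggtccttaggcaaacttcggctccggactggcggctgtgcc
Pygl, chr12:70227684-70227933, minus strand: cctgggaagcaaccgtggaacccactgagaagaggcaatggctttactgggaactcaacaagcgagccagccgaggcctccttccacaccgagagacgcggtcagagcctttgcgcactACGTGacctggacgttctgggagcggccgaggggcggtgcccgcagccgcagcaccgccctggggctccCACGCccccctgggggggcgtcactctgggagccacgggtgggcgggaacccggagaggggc
Ppp1r3c, chr19:36736654-36736854, minus strand: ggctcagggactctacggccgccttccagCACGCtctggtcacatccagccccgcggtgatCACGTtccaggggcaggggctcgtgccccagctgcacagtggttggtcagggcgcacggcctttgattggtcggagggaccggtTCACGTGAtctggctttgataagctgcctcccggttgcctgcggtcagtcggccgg

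A window was found for 8 of the 9 genes, and Ugp2 has 2 of them. In the window of Ugp2 shown above, 1 ACGTG and 5 GCGTG were found, and its other window held none of the motifs. Pygl and Pygb had 1 ACGTG and 1 GCGTG each, Gyg and Stbd1 had 1 GCGTG each, and the windows of Gys1 and Gbe1 had no match. In Ppp1r3c the CACGTG began 104 bases before the start and lay inside 2 TCACGTG on opposite strands. The 3 ACGTG of that window include the pair that overlaps the CACGTG. Among 32851 promoter windows of the same length, 6.02% held a CACGTG, 3.13% a TCACGTG, 3.25% a TCATGTG, 16.6% an ACGTG and 28.2% a GCGTG. The RefSeq start of Pygl lies inside the span that GENCODE gives the gene, whose longest form starts further upstream. For neither window of Ugp2 was the stretch after the RefSeq start found in a GENCODE transcript of the gene. The window shown for Ugp2 ends at 21371268, upstream of the GENCODE start at 21371201. A match describes the letters only and is not a binding site.

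In KI kidneys, 5 of the 9 genes were higher than in Cre(−) kidneys, 3 were lower and 1 did not pass the test at an adjusted p under 0.05. Here and below the adjusted p is from the quasi-likelihood F-test of edgeR, with the Benjamini-Hochberg adjustment across the 16995 genes. The enzyme that makes UDP-glucose (Ugp2) and the chain starter (Gyg) were about 3.00 and 2.97 times as high, whereas the phosphorylase Pygl fell to 0.351 times and the synthase Gys2 to 0.0872 times the Cre(−) level. Across all genes, 31.9% were higher and 29.1% lower in KI kidneys by the same rule, so most genes differed in this comparison. The median log2 fold change was 0.32 over the 9 genes and 0.04 over all genes tested. With limma on log2(TPM + 1) the median gene was 0.38 higher in KI kidneys, and 8843 genes were called higher and 2458 lower, against 5420 and 4951 on the count scale, so a direction near 0 depends on the scale.

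The KI kidneys also differed in cell type markers. The summed level of 8 proximal tubule markers was 11235 to 12908 CPM (counts scaled to a common library size with TMM factors) in Cre(−) kidneys and 1018 to 1142 CPM in KI kidneys, and all 8 were lower. The summed level of 4 macrophage markers was 116.3 to 138.1 CPM in Cre(−) and 1303 to 1335 CPM in KI kidneys, with 3 of the 4 higher. Cd68 was the main part of that sum, with a mean of 4.74 CPM in Cre(−) and 1113 CPM in KI kidneys, while Adgre1 and C1qa had means of 14.2 and 108.4 CPM in KI kidneys and Csf1r differed by −0.20 on the log2 scale (edgeR, adjusted p 0.0711). Hepatocyte markers summed to 72.5 to 93.6 CPM in Cre(−) and 244.5 to 612.0 CPM in KI kidneys, with Fga the main part, and of the 4 markers 1 (Fga) was higher and 2 (Alb and Apoa2) were lower. Adipocyte markers reached 767.2 CPM in KI replicate 2 and 53.3 and 81.8 CPM in the other KI kidneys. T and B lymphocyte markers reached 47.1 CPM in the same kidney and 6.52 and 2.66 CPM in the other KI kidneys, with 2 of 4 higher in KI than in Cre(−) kidneys. Without KI replicate 2 the genes called higher in KI kidneys were Ugp2 and Gyg, 2 in place of 5, and 3 were still called lower. Skeletal muscle markers, relevant to Pygm and Gys1, summed to no more than 4.09 CPM in any library, and Myh4 was at 0 in at least 1 library of each group. Cdh16 itself was 1111 to 1220 CPM in Cre(−) and 583.3 to 700.5 CPM in KI kidneys. It was 749.3 to 915.6 CPM in Hif1α KO, 740.6 to 810.8 in Hif2α KO and 780.1 to 810.7 in DKO kidneys. Against KI, Cdh16 was called higher in Hif1α KO (log2 difference 0.36) and DKO kidneys (0.32) and not in Hif2α KO kidneys (0.27). In whole kidney RNA, fewer cells of a type and less RNA per cell cannot be told apart, and the part of these cell types in the results was not tested. The 3 thick ascending limb markers of the kidney were detected in each library, at 4954 to 6509 CPM in sum in Cre(−) and 801.5 to 1417 CPM in KI kidneys. Podocyte markers had summed medians of 568.3 CPM in Cre(−) and 151.9 CPM in KI kidneys. All 3 podocyte, 2 distal convoluted tubule and 3 intercalated cell markers were lower, where 29.1% of all genes were. The collecting duct sum had medians of 342.6 and 333.9 CPM, with 1 marker higher and 2 lower.

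**Figure D1:**
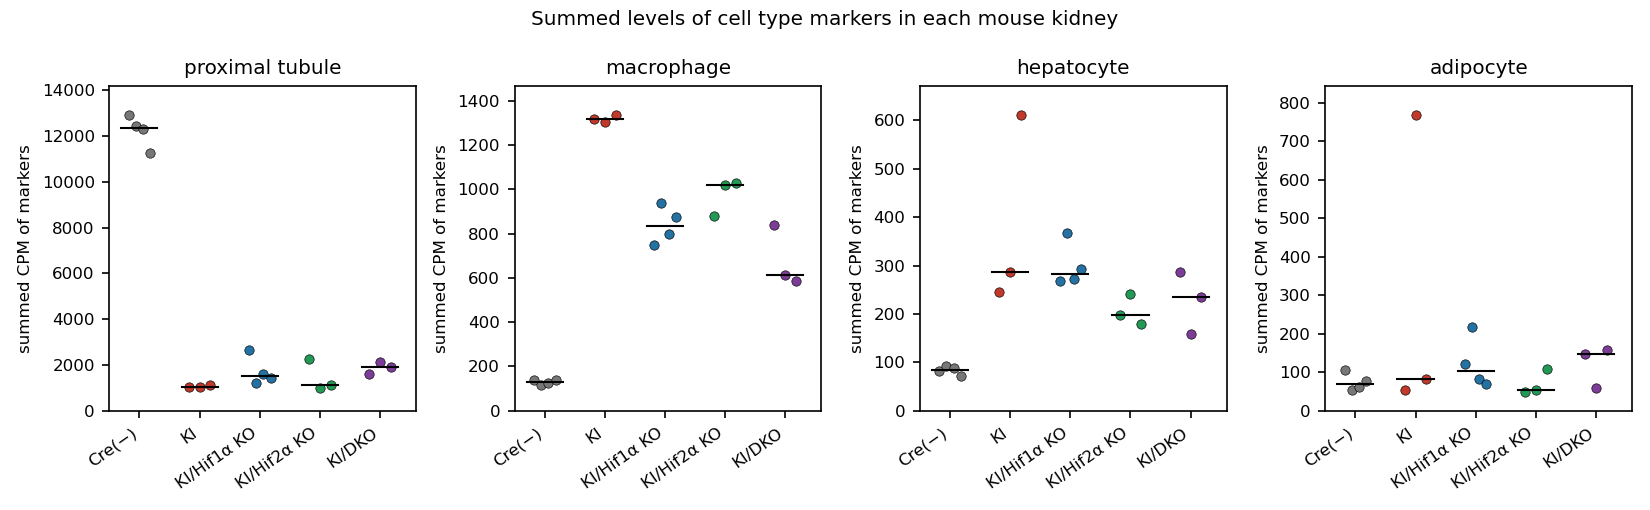
Summed CPM (vertical axes, linear from 0) of the proximal tubule, macrophage, hepatocyte and adipocyte marker lists in each of 17 kidneys, grouped by genotype, where each point is 1 kidney and the horizontal line is the group median. Proximal tubule markers were at least 11235 CPM in each Cre(−) kidney and at most 2634 CPM in each kidney with Cre, and 1 KI kidney stood apart with 767.2 CPM of adipocyte markers.

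The targeted genes were measured as whole-gene sums, which do not show a deleted exon. Hif1a was 101.6 to 127.1 CPM in Cre(−), 182.7 to 234.3 in KI, 161.4 to 198.4 in Hif1α KO and 173.6 to 203.0 in DKO kidneys. Epas1, which encodes Hif2α, was 195.2 to 256.7 CPM in Cre(−), 172.2 to 193.8 in KI, 162.1 to 179.3 in Hif1α KO, 136.8 to 151.9 in Hif2α KO and 157.2 to 165.0 in DKO kidneys. The KI range of Hif1a overlaps those of the Hif1α KO and DKO kidneys, and the KI range of Epas1 overlaps that of the Hif1α KO kidneys but not those of the Hif2α KO and DKO kidneys. The deletion itself was not analysed here, and cells without Cre keep both genes.

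**Figure D2:**
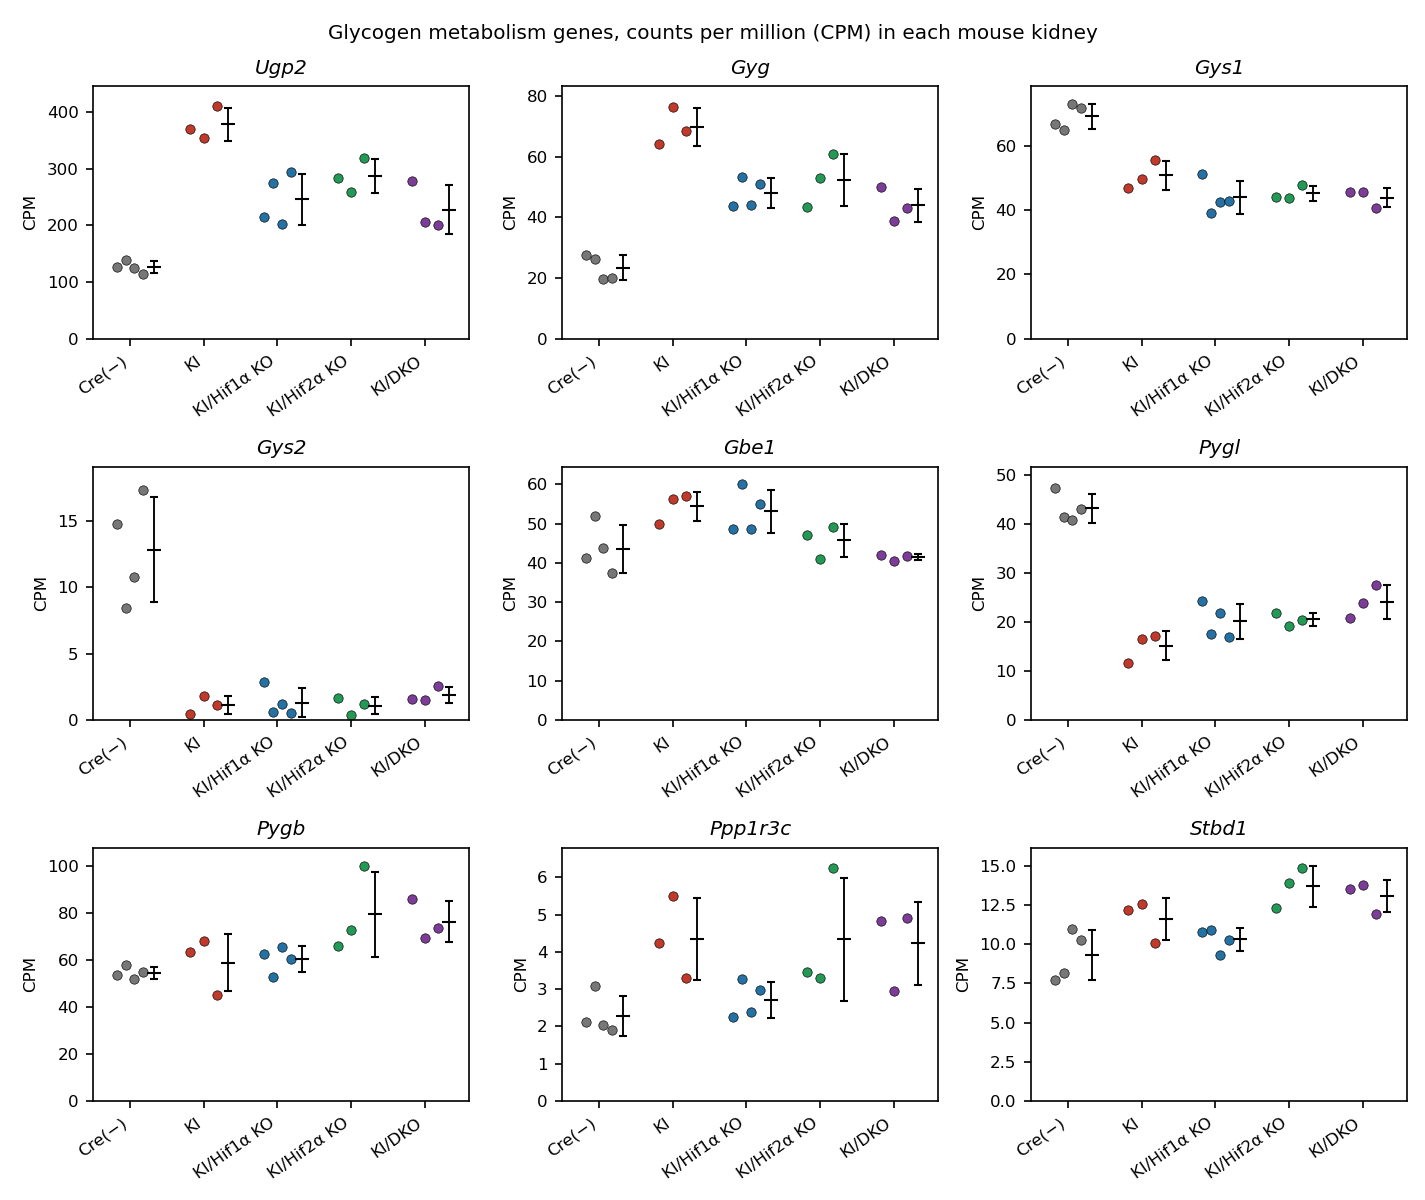
CPM (vertical axes, linear from 0) of the 9 glycogen metabolism genes in each of 17 kidneys, grouped by genotype, with the group mean ± SD beside the points. Ugp2 and Gyg were highest in the 3 KI kidneys and intermediate in the knockout groups, while Gys2 and Pygl were highest in the 4 Cre(−) kidneys.

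Ugp2 encodes UDP-glucose pyrophosphorylase, which supplies UDP-glucose for glycogen and for other sugar transfers. The gene lies on chromosome 11 of GRCm38 from 21321138 to 21371201 on the minus strand (ENSMUSG00000001891.16) and shares 78 exonic bases with Gm12043 on the opposite strand. Its level was 127.2, 139.1, 124.2 and 113.7 CPM in Cre(−) and 370.7, 354.4 and 410.1 CPM in KI kidneys. Every KI kidney was thus above every Cre(−) kidney. The log2 fold change was 1.59 ± 0.14 (SE) (edgeR, adjusted p 1.71e-07). In Hif1α KO kidneys Ugp2 was 214.9, 274.7, 202.0 and 294.8 CPM, in Hif2α KO kidneys 284.2, 259.2 and 319.0 CPM, and in DKO kidneys 278.2, 206.1 and 200.3 CPM. All 10 knockout kidneys were below the lowest KI kidney and above the highest Cre(−) kidney. The order of the means was KI (378.4 ± 28.6 CPM, SD, n = 3), Hif2α KO (287.5 ± 30.0, n = 3), Hif1α KO (246.6 ± 45.1, n = 4), DKO (228.2 ± 43.4, n = 3) and Cre(−) (126.0 ± 10.5, n = 4). The knockout groups overlap each other. The main transcript, Ugp2-201, made up 71.56% of the gene's TPM (a level per transcript length, scaled within each library) in Cre(−) and 68.75% in KI kidneys on average.

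Gyg encodes glycogenin, the protein on which a glycogen chain begins. It lies on chromosome 3 from 20122084 to 20155317 on the minus strand (ENSMUSG00000019528.18). Gyg was 27.6, 26.3, 19.8 and 20.0 CPM in Cre(−) and 64.0, 76.4 and 68.5 CPM in KI kidneys, without overlap. The log2 fold change was 1.57 ± 0.14 (SE) (edgeR, adjusted p 1.65e-07). The values were 43.8, 53.4, 43.9 and 50.9 CPM in Hif1α KO, 43.4, 52.9 and 60.7 CPM in Hif2α KO and 49.9, 38.9 and 42.9 CPM in DKO kidneys. As for Ugp2, each knockout kidney lay between the Cre(−) and the KI range. The mean fell in the same order, from KI (69.6 ± 6.24 CPM, SD) through Hif2α KO (52.3 ± 8.63), Hif1α KO (48.0 ± 4.90) and DKO (43.9 ± 5.57) to Cre(−) (23.4 ± 4.13). Neighbouring knockout groups overlap.

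Glycogen synthase has a form found in most tissues, Gys1, and a form typical of liver, Gys2. Gys1 (chromosome 7 from 45434844 to 45456619, plus strand, ENSMUSG00000003865.16) was 66.8, 65.0, 73.1 and 71.8 CPM in Cre(−) and 47.0, 49.7 and 55.7 CPM in KI kidneys. The ranges do not overlap, and the log2 fold change was −0.45 ± 0.09 (SE) (edgeR, adjusted p 0.000459). On the log2(TPM + 1) scale Gys1 differed by −0.10 with an adjusted p of 0.373 (limma), where the median gene was shifted by 0.38. Its call thus depends on the scale. Gys1 shares 310 exonic bases with Ruvbl2 on the opposite strand, and whether reads were counted by strand is not given in the sources used here. In the knockout groups Gys1 ranged from 39.2 to 51.3 CPM, and every knockout kidney was below the Cre(−) range.

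Gys2 (chromosome 6 from 142422613 to 142473109, minus strand, ENSMUSG00000030244.7) was 14.8, 8.45, 10.8 and 17.3 CPM in Cre(−) and 0.457, 1.80 and 1.08 CPM in KI kidneys, on 8 to 33 counts. The KI kidneys were far below the Cre(−) range. The log2 fold change was −3.52 ± 0.62 (SE), an 11.5-fold fall (edgeR, adjusted p 0.000153). The knockout kidneys held 0.356 to 2.85 CPM, also below every Cre(−) kidney and overlapping the KI range. Of the hepatocyte markers Fga was higher in KI kidneys, while Alb was lower, with means of 20.6 CPM in Cre(−) and 0.112 CPM in KI kidneys, and so was Apoa2, with means of 5.00 and 0.881 CPM. The proximal tubule sum had medians of 12358 CPM in Cre(−) and 1055 CPM in KI kidneys. The part of these cell types in the level of Gys2 was not tested.

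Gys1 made up 76.6% ± 9.2 (SD, n = 4) of the summed TPM of both synthases in Cre(−) kidneys and 95.0% ± 4.79 (n = 3) in KI kidneys, a difference of 18.4 percentage points. The share ranged from 66.0% to 84.8% in Cre(−) and from 89.6% to 98.3% in KI kidneys, without overlap. An exact permutation test, two-sided by doubling the one-sided p, gave p = 0.0571, the smallest value that doubling allows for 3 against 4 kidneys. In the knockout groups the mean share was 92.1% to 95.4%. Each knockout kidney was above the Cre(−) range in this share. Retained-intron transcripts of Gys1 are counted in it, of which Gys1-202 held on average 8.78% of the gene's TPM in Cre(−) and 5.29% in KI kidneys.

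Gbe1 encodes the branching enzyme and lies on chromosome 16 from 70313949 to 70569716 on the plus strand (ENSMUSG00000022707.16). It was 41.2, 51.9, 43.8 and 37.3 CPM in Cre(−) and 50.0, 56.2 and 56.9 CPM in KI kidneys. The highest Cre(−) kidney was above the lowest KI kidney. The log2 fold change was 0.32 ± 0.11 (SE) (edgeR, adjusted p 0.0159), and the call was lost without Cre(−) replicate 4, KI replicate 2 or KI replicate 3, with adjusted p-values of 0.0595, 0.0537 and 0.0675. Gbe1 was 48.6, 60.2, 48.7 and 54.9 CPM in Hif1α KO, 47.1, 41.0 and 49.0 CPM in Hif2α KO and 42.0, 40.5 and 41.8 CPM in DKO kidneys. The Hif1α KO kidneys overlap the KI range, and the Hif2α KO and DKO kidneys were below it.

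Of the glycogen phosphorylases, Pygl is the liver form and Pygb the brain form. Pygl (chromosome 12 from 70190811 to 70231488, minus strand, ENSMUSG00000021069.17) was 47.4, 41.5, 40.8 and 43.0 CPM in Cre(−) and 11.7, 16.5 and 17.2 CPM in KI kidneys. The groups are well apart, with a log2 fold change of −1.51 ± 0.15 (SE) (edgeR, adjusted p 5.17e-07). Its values were 24.3, 17.5, 21.8 and 16.9 CPM in Hif1α KO, 21.9, 19.2 and 20.4 CPM in Hif2α KO and 20.8, 23.9 and 27.6 CPM in DKO kidneys. The means rose from KI (15.1 ± 2.97 CPM, SD) through Hif1α KO (20.1 ± 3.55), Hif2α KO (20.5 ± 1.34) and DKO (24.1 ± 3.43) to Cre(−) (43.2 ± 2.94). Only the Hif1α KO group overlaps the KI range, and the 3 knockout groups overlap each other. The order of the groups is close to the reverse of that of Ugp2 and Gyg.

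Pygb (chromosome 2 from 150786735 to 150831758, plus strand, ENSMUSG00000033059.7) was 53.5, 58.1, 52.0 and 55.1 CPM in Cre(−) and 63.4, 68.1 and 45.3 CPM in KI kidneys. The KI kidneys lie on both sides of the Cre(−) range. Its log2 difference was 0.11 ± 0.15 (SE) (edgeR, adjusted p 0.546). With limma on log2(TPM + 1) the difference was 0.56 (adjusted p 0.0167), on a scale where the median gene is shifted by 0.38. Pygb was 65.9, 72.8 and 100 CPM in Hif2α KO and 86.2, 69.5 and 73.7 CPM in DKO kidneys, all above the Cre(−) range, and 52.7 to 65.7 CPM in Hif1α KO kidneys, which overlap it.

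Among the transcripts of the 3 phosphorylases, Pygb took 47.8% ± 2.80 (SD, n = 4) of the summed TPM in Cre(−) kidneys and 69.9% ± 5.91 (n = 3) in KI kidneys. The share ran from 44.2% to 50.7% in Cre(−) and from 63.9% to 75.8% in KI kidneys, so the groups do not overlap. The difference of 22.1 percentage points had p = 0.0571 in the exact permutation test, two-sided, again the smallest value possible by doubling. Mean shares of 66.3% to 70.4% were found in the knockout groups, with 62.7% the lowest kidney and above the Cre(−) range. Pygm, the muscle form, was 3.06 to 4.52 CPM in KI kidneys and its log2 difference was −0.24 (edgeR, adjusted p 0.314). The Pygb share counts a retained-intron transcript, Pygb-203, with on average 18.31% of the gene's TPM in Cre(−) and 21.82% in KI kidneys. The coding Pygl-201 made up 98.79% and 96.95% of the TPM of Pygl.

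**Figure D3:**
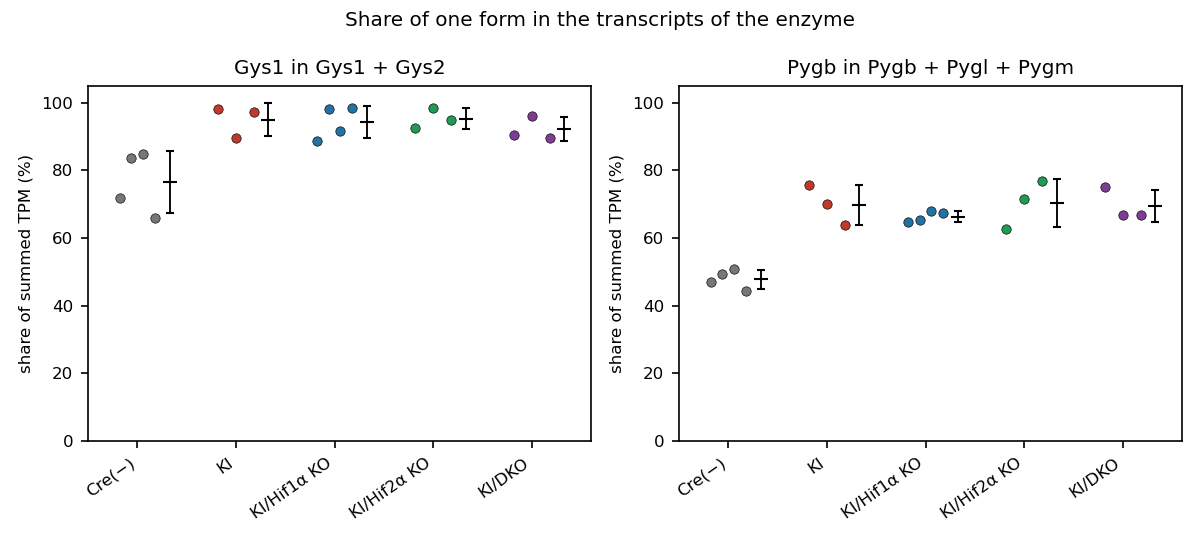
Share of Gys1 in the summed TPM of Gys1 and Gys2 (left) and of Pygb in that of Pygb, Pygl and Pygm (right), in percent, for each of 17 kidneys by genotype, with the group mean ± SD beside the points. Both shares were higher in each KI kidney than in each Cre(−) kidney, with means of 95.0% against 76.6% and 69.9% against 47.8%, and the knockout groups stayed near the KI level.

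Ppp1r3c encodes PTG, a subunit that brings protein phosphatase 1 to glycogen and promotes its synthesis. It lies on chromosome 19 from 36731731 to 36736653 on the minus strand (ENSMUSG00000067279.3), and the CACGTG in the promoter shown above is of this gene. Levels were low, at 2.12, 3.08, 2.04 and 1.89 CPM in Cre(−) and 4.23, 5.50 and 3.29 CPM in KI kidneys. The lowest KI value was just above the highest Cre(−) value. The log2 fold change was 0.92 ± 0.28 (SE) (edgeR, adjusted p 0.00977), and without KI replicate 2 it was 0.72 with an adjusted p of 0.0616. Ppp1r3c was 2.25, 3.27, 2.38 and 2.97 CPM in Hif1α KO, 3.47, 3.29 and 6.24 CPM in Hif2α KO and 4.83, 2.95 and 4.92 CPM in DKO kidneys. The Hif1α KO kidneys overlap the Cre(−) range and were all below the lowest KI kidney, and the other knockout groups overlap the KI range.

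Stbd1 encodes a glycogen-binding protein that anchors glycogen to membranes and takes part in its delivery to lysosomes. It lies on chromosome 5 from 92603041 to 92606579 on the plus strand (ENSMUSG00000047963.7). Stbd1 was 7.71, 8.18, 11.0 and 10.3 CPM in Cre(−) and 12.2, 12.6 and 10.1 CPM in KI kidneys, which overlap. Its log2 fold change of 0.32 ± 0.13 (SE) had an adjusted p of 0.0487 with edgeR. The call was lost with DESeq2 (adjusted p 0.0544) and with its size factors in edgeR (0.0562). It was also lost without any one of Cre(−) replicates 1 and 2 and KI replicates 1 and 2 (adjusted p 0.127 to 0.161). Of the 9 settings other than omissions, 3 kept the call, among them limma on log2(TPM + 1) and log2(TPM + 0.1), where the median gene was shifted upward. Values of 12.3, 13.9 and 14.9 CPM in Hif2α KO and 13.5, 13.8 and 11.9 CPM in DKO kidneys were above the Cre(−) range. Hif1α KO kidneys, at 9.29 to 10.9 CPM, were within it.

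Per unit of transcript length, Ugp2 was the most abundant of the 9 genes in both groups, at 76.0 ± 4.71 TPM (SD) in Cre(−) and 306.0 ± 14.8 TPM in KI kidneys. In Cre(−) kidneys the next were Gys1 at 25.1, Pygb at 19.1, Gbe1 at 17.5, Pygl at 17.3 and Gyg at 16.1 mean TPM. Pygb, Gbe1, Pygl and Gyg overlap each other at that level. Gyg was second in KI kidneys at 65.4 ± 6.48 TPM, followed by Pygb at 29.4, Gbe1 at 29.2 and Gys1 at 23.2 mean TPM. Pygb overlaps both Gbe1 and Gys1, which do not overlap each other. Ppp1r3c was lowest in Cre(−) kidneys at 0.957 and Gys2 lowest in KI kidneys at 1.28 mean TPM.

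The comparison of Hif1α KO with KI kidneys gives the levels in whole kidney RNA with and without the Hif1α deletion when PRCC-TFE3 is present. The paper reports less tumor development in Hif1α KO and DKO than in KI kidneys, and no such inhibition in Hif2α KO kidneys. Genotype and the amount of tumor tissue thus cannot be told apart in the comparisons with KI, and the part of tumor tissue was not tested. Of the 9 genes, 2 were lower in Hif1α KO kidneys and none higher, where 5.56% of all genes differed. Ugp2 fell by 0.62 ± 0.14 (SE) on the log2 scale with an adjusted p of 0.0227, and Gyg fell by 0.54 ± 0.14 with an adjusted p of 0.0349 (edgeR). All 4 Hif1α KO kidneys were below all 3 KI kidneys for both genes. The same held for Ppp1r3c, which did not pass the test, and the share of all genes so separated was not counted. The call of Ugp2 was lost without KI replicate 3, Hif1α KO replicate 1 or Hif1α KO replicate 3, with log2 differences of −0.55, −0.56 and −0.53 and adjusted p-values of 0.0754, 0.0672 and 0.0706. That of Gyg was kept only without Hif1α KO replicate 2, and in the other 6 omissions the adjusted p ran from 0.0501 to 0.113. Ppp1r3c differed by −0.67 ± 0.27 (adjusted p 0.164), Pygl by 0.41 ± 0.15 (0.119) and Gys1 by −0.21 ± 0.09 (0.175) in that test. Stbd1, Gbe1, Pygb and Gys2 differed by −0.17, −0.03, 0.04 and 0.16, with adjusted p-values from 0.490 to 0.916. Of the proximal tubule markers, 4 of 8 were higher in Hif1α KO than in KI kidneys, with a summed level of 1194 to 2634 CPM, thick ascending limb markers were higher in 2 of 3, and of the 4 macrophage markers 1 was higher (Adgre1, mean 23.0 CPM) and 1 lower (Cd68, mean 584.8 CPM). C1qa and Csf1r, at means of 137.9 and 93.8 CPM in Hif1α KO kidneys, did not pass the test. The part of these cell types in the fall of Ugp2 and Gyg was not tested.

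In Hif2α KO kidneys none of the 9 genes passed the test against KI (edgeR), where 1.23% of all genes did. At an unadjusted p under 0.05 there were 5 (Gbe1, Gyg, Pygb, Pygl and Ugp2), where 18.8% of all genes had such a p, and DESeq2 and limma on log2(TPM + 1) also called 0. The log2 differences were −0.40 ± 0.15 (SE) for Ugp2, −0.41 ± 0.15 for Gyg, −0.25 ± 0.11 for Gbe1, 0.44 ± 0.16 for Pygl and 0.43 ± 0.16 for Pygb, with adjusted p-values from 0.148 to 0.244. The 3 Hif2α KO kidneys were below the 3 KI kidneys for Ugp2, Gyg and Gbe1 and above them for Pygl. The share of all genes with such a separation was not counted. The other genes differed by −0.17 (Gys1), −0.05 (Gys2), −0.00 (Ppp1r3c) and 0.23 (Stbd1).

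In DKO kidneys 4 of the 9 genes passed the test against KI, where 12.7% of all genes did. Ugp2 fell by 0.73 ± 0.15 (SE) on the log2 scale (adjusted p 0.00864), Gyg fell by 0.67 ± 0.15 (0.0113) and Gbe1 fell by 0.39 ± 0.11 (0.0345), and Pygl rose by 0.67 ± 0.16 (0.0140), all with edgeR. The DKO and KI kidneys do not overlap for these 4 genes, nor for Gys1 and Pygb, which did not pass the test. The share of all genes without overlap was not counted. Ugp2 passed the test in every omission of 1 kidney. Without DKO replicate 2 only Ugp2 was called, with adjusted p-values of 0.0574 for Gyg, 0.115 for Gbe1 and 0.0509 for Pygl, and without DKO replicate 3 Gbe1 (0.0898) and Pygl (0.0733) were lost. Gbe1 was also lost without KI replicate 2 (0.0820), KI replicate 3 (0.116) or DKO replicate 1 (0.0646), and on the TPM scale. Pygb differed by 0.38 ± 0.16 (adjusted p 0.125), Gys1 by −0.21 ± 0.09 (0.150) and Gys2 by 0.74 ± 0.63 (0.473). Proximal tubule markers summed to 1588 to 2124 CPM in DKO kidneys, with 4 of 8 higher than in KI, and 3 of 3 thick ascending limb markers were higher. Of the 4 macrophage markers 1 was higher (Adgre1, mean 24.1 CPM) and 1 lower (Cd68, mean 427.2 CPM), and C1qa and Csf1r, at means of 134.7 and 93.6 CPM, did not pass the test. The part of these cell types was not tested. The 3 comparisons with KI share the same 3 KI kidneys.

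**Figure D4:**
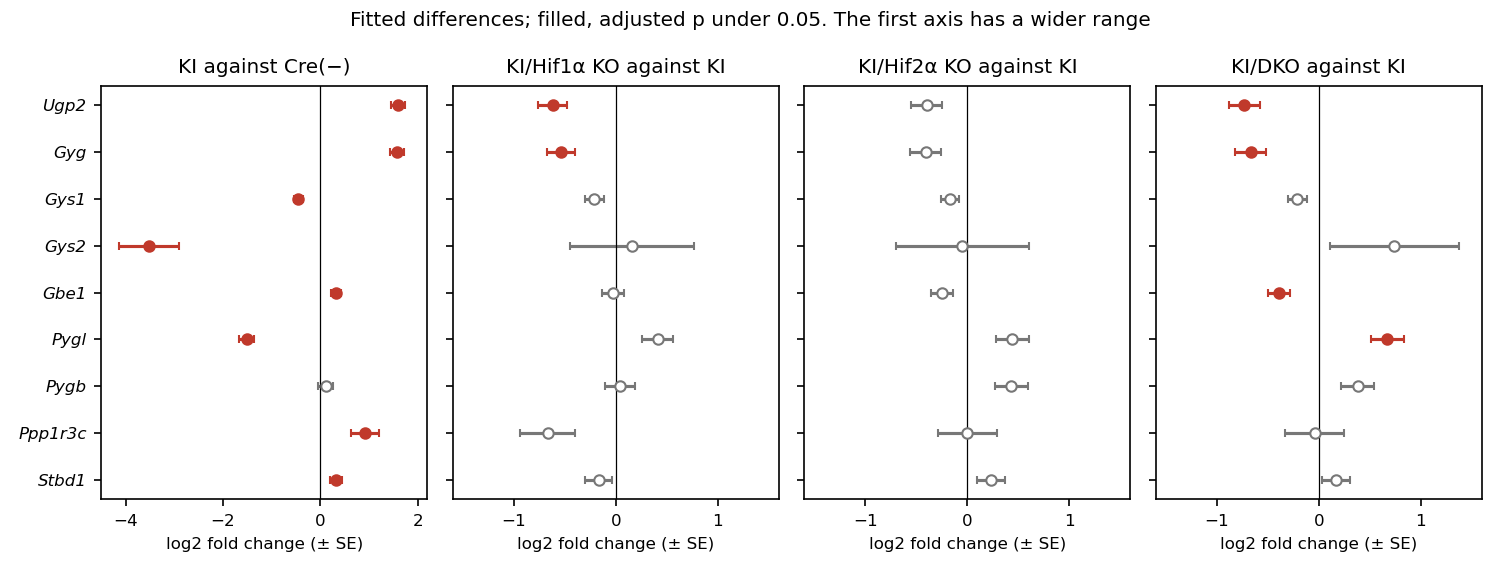
Fitted log2 fold changes (horizontal axes, ± SE) of the 9 genes for KI against Cre(−) kidneys and for each knockout group against KI kidneys, with filled red points where the adjusted p of the edgeR test was under 0.05. The first panel has a wider axis, from Gys2 at −3.52 to Ugp2 at 1.59, and in the other panels the filled points are Ugp2 and Gyg in Hif1α KO and Ugp2, Gyg, Gbe1 and Pygl in DKO kidneys.

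The knockout groups were also compared with each other. None of the 9 genes differed between Hif1α KO and Hif2α KO kidneys, where 0.43% of all genes did, and DESeq2 and limma on log2(TPM + 1) also gave 0 (edgeR in the main test). At an unadjusted p under 0.05 there were 3, against 15.1% of all genes, with log2 differences, Hif1α KO minus Hif2α KO, of −0.67 ± 0.27 (SE) for Ppp1r3c, −0.40 ± 0.15 for Pygb and −0.40 ± 0.13 for Stbd1 and adjusted p-values of 0.265, 0.206 and 0.159. For these 3 genes each Hif1α KO kidney was below each Hif2α KO kidney, a separation whose share over all genes was not counted. Ugp2 and Gyg, called against KI in Hif1α KO and not in Hif2α KO kidneys, differed by −0.22 ± 0.14 and −0.12 ± 0.14 between the groups (adjusted p 0.490 and 0.721), so a difference between the knockouts was not shown for them.

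No gene of the 9 differed between DKO and Hif1α KO kidneys, where 0.312% of all genes did, or between DKO and Hif2α KO kidneys, where 0.00588% did, with the same counts of 0 by DESeq2 and limma (edgeR in the main test). At an unadjusted p under 0.05 there were 4 in the first comparison (Gbe1, Ppp1r3c, Pygb and Stbd1), against 13.1% of all genes, and 1 in the second (Ugp2), against 5.67% of all genes. Gbe1 was lower by a log2 difference of −0.36 ± 0.11 (SE) in DKO than in Hif1α KO kidneys, with an adjusted p of 0.161. The groups do not overlap for Gbe1, Pygb and Stbd1, and the share of all genes without overlap was not counted. The interaction of both knockouts, that is the DKO difference from KI minus the sum of the single differences, was called for 0 of the 9 and for 0.0% of all genes, and no member had an unadjusted p under 0.05 by edgeR, DESeq2 or limma, while 5.91% of all genes did with edgeR. For Ugp2 and Gyg it was 0.28 ± 0.21 and 0.28 ± 0.20 (SE) on the log2 scale.

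Against Cre(−) kidneys, 6 of the 9 genes differed in Hif1α KO (background 62.0% of all genes), 8 in Hif2α KO (background 61.8%) and 8 in DKO kidneys (background 58.2%), with edgeR. Ugp2 and Gyg were still higher, by 0.97 and 1.03 on the log2 scale in Hif1α KO, 1.19 and 1.16 in Hif2α KO and 0.86 and 0.90 in DKO kidneys. Gys1, Gys2 and Pygl were still lower in each, with Gys2 at −3.36, −3.57 and −2.78 and Pygl at −1.10, −1.07 and −0.84. Pygb and Stbd1 were higher in Hif2α KO (0.54 and 0.55) and DKO kidneys (0.48 and 0.49), and differed by 0.14 and 0.15 in Hif1α KO kidneys with adjusted p-values of 0.378 and 0.314. Ppp1r3c had the same pattern of calls, with 0.92, 0.88 and 0.25 in that order. In the direct comparisons of Hif1α KO with Hif2α KO and with DKO kidneys, Pygb, Stbd1 and Ppp1r3c did not pass the test. With limma on log2(TPM + 0.1) Ppp1r3c was also called in Hif1α KO kidneys (0.64, adjusted p 0.0487), where the median gene was shifted by 0.45. Gbe1 was higher in Hif1α KO kidneys (0.29, adjusted p 0.0193) and differed by 0.07 in Hif2α KO and −0.07 in DKO kidneys without passing the test. With limma on log2(TPM + 1) Gbe1 was called higher in all 3 knockout groups (0.47 in DKO kidneys, against −0.07 on the count scale, where the median gene is shifted by 0.46 on the TPM scale), Pygb and Stbd1 were also called in Hif1α KO kidneys, and the calls of Gys1 in Hif2α KO and DKO kidneys and of Pygl in DKO kidneys were lost, with differences of −0.18, −0.18 and −0.29. These 3 comparisons share the 4 Cre(−) kidneys.

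Over the 13 kidneys with Cre, the genes whose log2 CPM followed that of Ugp2 most closely were Card14 (Pearson r 0.973), Tmem140 (0.972) and Sel1l3 (0.968). Of the other members, Gyg had r = 0.889 with Ugp2, rank 192 of all genes tested, and Pygl had r = −0.797. For Gys2, which rests on 8 to 52 counts in these kidneys, the closest were Slc5a6 (0.929), Acadsb (0.867) and Pcx (0.857), and Pygl had 0.694. Slc5a6 fell from 37.1 to 53.1 CPM in Cre(−) to 8.10 to 14.6 CPM in kidneys with Cre. These values are descriptions over libraries that share their genotype groups and their cell composition.

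Other genes of glycogen metabolism were counted from a wider list of 35. The list also holds phosphoglucomutases, catalytic subunits of protein phosphatase 1, genes of glucose entry and exit and other users of UDP-glucose. Its counts are thus not of glycogen genes alone. Of the 35 genes, 33 passed the filter and Ppp1r3a and Ppp1r3g did not. In KI against Cre(−) kidneys 8 were higher and 11 lower, where 31.9% and 29.1% of all genes were, and 14 did not pass the edgeR test, with a median log2 fold change of 0.09. With limma on log2(TPM + 1) the split was 19 higher and 7 lower, and Phka2, Pgm3 and Ppp1r3e, which are lower on the count scale, then differed by 0.12, 0.28 and 0.04, each below the 0.38 by which the median gene is shifted on that scale. Hif1α KO kidneys had 2 lower than KI (Hk2 and Pgm3), where 5.56% of all genes differed, and DESeq2 called 1 higher and 5 lower. Hif2α KO kidneys had 0, where 1.23% of all genes differed (7 at an unadjusted p under 0.05, against 18.8% of all genes, and 3 called by DESeq2 and 0 by limma). DKO kidneys had 1 higher and 5 lower, where 12.7% of all genes differed. The largest change was in Hk2, the inducible hexokinase that traps glucose as glucose 6-phosphate, which was 1.01 to 2.46 CPM in Cre(−) and 352.7 to 474.2 CPM in KI kidneys (log2 fold change 8.04, adjusted p 8.22e-09). The log2 difference of Hk2 from KI was −1.37 in Hif1α KO (adjusted p 0.0464) and −1.36 in DKO kidneys (0.0432). In Hif2α KO kidneys it was −0.40 (0.642). Hk2 was 85.0 to 243.1 CPM in Hif1α KO and 146.6 to 486.3 CPM in Hif2α KO kidneys, which overlap. None of the 33 genes was called between these 2 groups, where 0.43% of all genes differed. A difference between the knockouts was thus not shown for Hk2.

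Gaa, the lysosomal enzyme that breaks glycogen down, rose by a log2 fold change of 1.27 in KI kidneys (116.1 to 138.2 CPM in Cre(−), 297.3 to 310.9 CPM in KI, edgeR, adjusted p 1.45e-07). Gaa was lower in DKO than in KI kidneys, with a log2 difference of −0.57 (adjusted p 0.00908). In Hif1α KO kidneys it was 205.1 to 261.9 CPM, below each KI kidney, with a log2 difference of −0.38 that missed the threshold (adjusted p 0.0608) and passed it with DESeq2 (0.0143). Of the subunits of phosphorylase kinase, which switches the phosphorylases on, Phkb was lower in KI kidneys (log2 difference −0.91), Phka2 was lower by the same test (−0.33, and 0.12 on the shifted TPM scale), Phka1 was higher (0.29, a call lost with DESeq2), and Phkg1 and Phkg2 differed by −0.01 and 0.13 without passing the test. None of the 5 passed the test in a knockout group against KI. Of all genes, 5.56% did in Hif1α KO, 1.23% in Hif2α KO and 12.7% in DKO kidneys.

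Among the relatives of Ppp1r3c, Ppp1r3e was lower in KI kidneys (−0.43, adjusted p 0.0390, and 0.04 on the TPM scale) and higher in DKO than in KI kidneys (0.69, adjusted p 0.0219), in the edgeR test. Ppp1r3b, Ppp1r3d and Ppp1r3f differed by 0.68, 0.23 and −0.02 in KI kidneys with adjusted p-values of 0.122 to 0.933. Of the catalytic subunits that these bind, Ppp1cc rose by 0.80 (adjusted p 1.53e-06). Of the 3 subunits 2 were higher, where 31.9% of all genes were. Epm2a, which encodes the glycogen phosphatase laforin, fell by 0.91 on the log2 scale (adjusted p 4.58e-05), and Nhlrc1, its partner malin, differed by 0.10 (0.786).

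Pgm5 had the largest change of the 5 phosphoglucomutase genes, and its lowest KI kidney, at 23.8 CPM, was above each Cre(−) kidney (log2 fold change 1.70, adjusted p 4.18e-06, edgeR). It encodes a member of that family with little enzyme activity, and Pgm1 and Pgm3 were lower on the count scale, of which Pgm3 differed by 0.28 on the shifted TPM scale. Of the users of UDP-glucose, Ugcg, which makes glucosylceramide, rose most, with a log2 fold change of 1.94 (adjusted p 2.58e-08), and of the 3 genes 2 were higher and 1 lower. The synthase kinases Gsk3a and Gsk3b differed by 0.09 and 0.08 and did not pass the test. With limma on log2(TPM + 1), where the median gene was shifted by 0.38, both were called higher. Of the 7 tested genes by which glucose enters and leaves the pool, 1 was higher (Hk2) and 4 were lower. Beside this count and that of the users of UDP-glucose, 31.9% of all genes were higher and 29.1% lower.

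**Figure D5:**
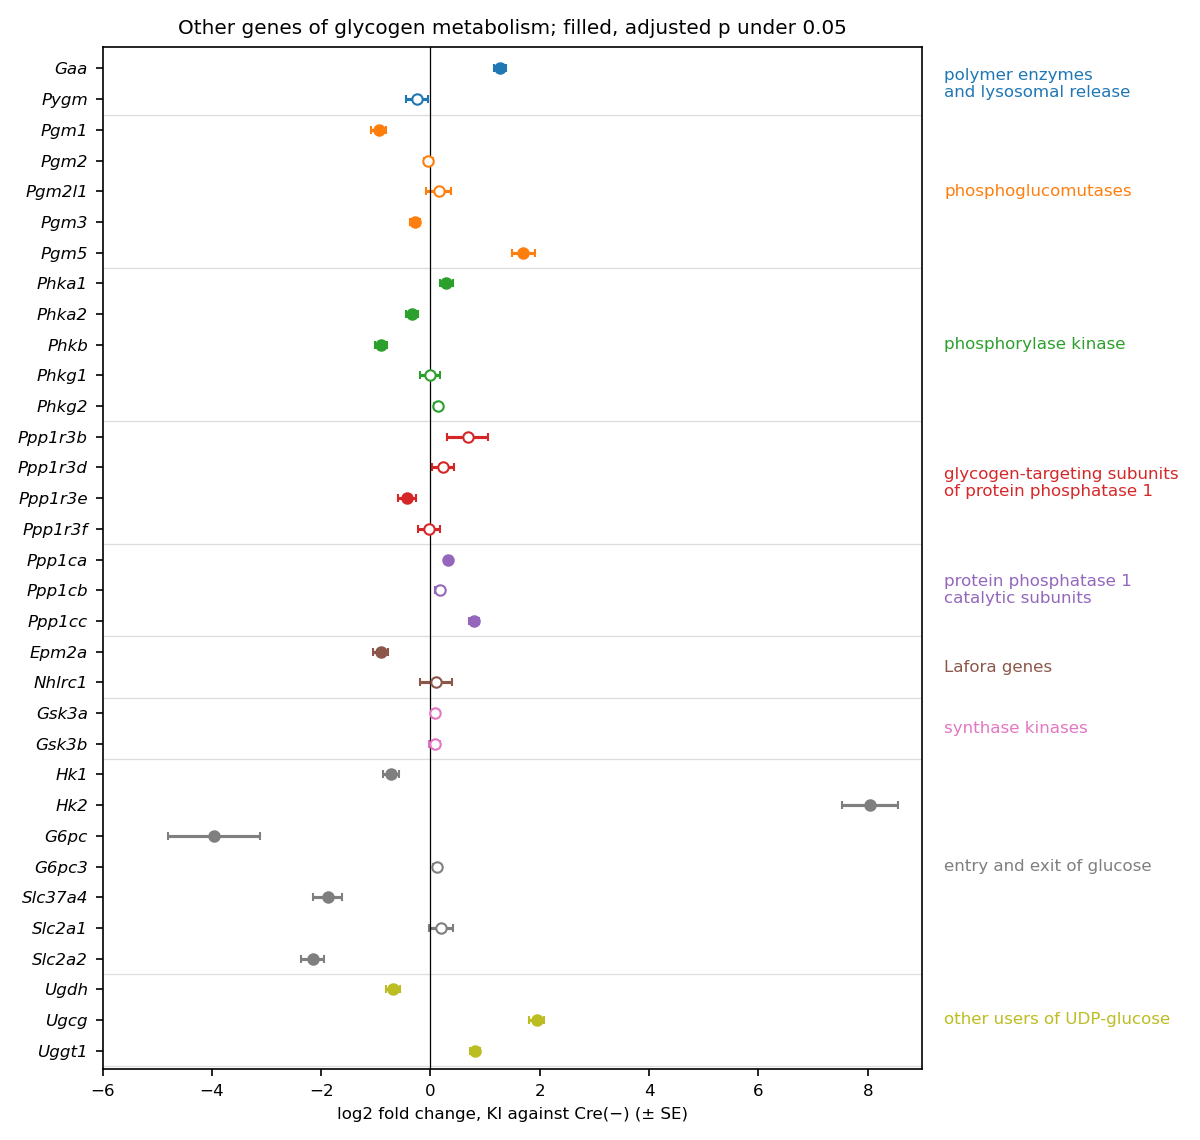
Fitted log2 fold changes (horizontal axis, ± SE) in KI against Cre(−) kidneys for the 33 tested genes of the wider glycogen list, coloured by functional group, with filled points where the adjusted p of the edgeR test was under 0.05. Of these genes 8 were higher and 11 lower, Hk2 stands apart at 8.04, and Phka2, Pgm3 and Ppp1r3e, lower here, are above 0 on the TPM scale, where the median gene is shifted by 0.38.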

How the data were processed

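Kidney RNA of 17 mice in 5 groups was analysed. Per the labels and methods, reads were trimmed with Trim Galore 0.6.6 and cutadapt 2.5 and aligned with STAR 2.7.9a, and the methods name RSEM, hg38 for alignment and hg38 or GRCm38 for annotation. The files list mouse transcripts. The authors deposited expected counts (estimated, not normalized) and TPM (scaled for length and library) per transcript. Of 119353 transcripts, 116770 (97.8%) were matched to GENCODE M21 and summed to 35971 genes, and counts were rounded. The matched transcripts held 99.04% to 99.24% of each library's counts.

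Groups were compared by the quasi-likelihood F-test (edgeR 4.0.16 in R 4.3.3) with TMM factors, filterByExpr with a minimum count of 10, all libraries in 1 fit and a Benjamini-Hochberg threshold of 0.05 over 16995 genes. CPM are on TMM-scaled library sizes. Shares were tested by exact permutation (SciPy 1.17.1). The alternatives were DESeq2 1.42.0 (the study's tool), its size factors in edgeR, no filter, a fit of the 2 or 4 groups at hand alone, a block for replicate number, limma 3.58.1 on log2(TPM + 1) and log2(TPM + 0.1), either pair of Cre(−) mice, a minimum log2 fold change of 1, and each replicate left out. The fits were tested on simulated data. The labels number samples within each genotype without naming mice, so p-values measure the spread between these samples, which are called mice or kidneys here.

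Genes were named by a rule: the 9 members, from the wider list each tested polymer enzyme, phosphorylase kinase, targeting subunit and Lafora gene and the largest called change of each other group, and the 3 genes closest to the member with the largest rise and the largest fall. The members and lists were chosen with earlier results of these data known, and some genes of the wider list are not reported here and were left out of its counts. Pgm1, Pgm3, Hif1a and Epas1 were named after their values were seen. Same-numbered libraries of different groups have different genotypes, so cannot be 1 mouse, and their deviations correlated by −0.294 to 0.332 (median −0.0541 over 31 pairs), so numbers do not pair them. Promoters are from RefSeq, GRCm38.p6.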

Additional observations from a re-analysis of the deposited data

How the results depend on the processing

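The fall of Gys1, Gys2 and Pygl in KI kidneys kept its count of 3 under each omission of 1 kidney, and the count of genes higher in KI ran from 2 to 5, with 2 (Gyg and Ugp2) without KI replicate 2, the kidney with high adipocyte and lymphocyte markers, and 3 with only Cre(−) replicates 1 and 2. Counts of calls against KI in Hif1α KO kidneys ran from 0 to 2 and in DKO kidneys from 1 to 4 over such omissions, and the cause was not tested. The Hif1α KO count was 1 (Gyg) with only the groups compared, and with limma 1 (Ugp2) at a TPM pseudocount of 1 and 1 (Ugp2) at 0.1. With the replicate number as a block the Hif1α KO count was 0, and the numbers do not pair these mice. A minimum log2 fold change of 1 left 2 genes higher in KI, 0 called in Hif1α KO and 0 in DKO against KI, and 3, 4 and 1 called against Cre(−) in Hif1α KO, Hif2α KO and DKO kidneys, by construction. The share of all genes that passed this minimum was not counted, so these counts have no background beside them. Over omissions, the share of Gys1 differed by 14.89 to 21.18 and that of Pygb by 19.17 to 25.08 percentage points. Of 504 refits of single genes in the comparisons of KI with Cre(−) and of each knockout with KI, 455 were counted as unchanged. These kept direction and call or, for values not called, changed sign with a shift under 1 SE. Another 45 kept direction and lost the call, and 2 kept direction and gained the call. The last 2, called in neither fit, reversed direction with a shift of 1 SE or more. Over all genes, the count called in Hif1α KO against KI was 945 in the main test, 1668 with DESeq2, 247 with only the groups compared, 489 with the block and 554 at a TPM pseudocount of 0.1. In Hif2α KO it was 209, against 1014, 2, 69 and 83 in the same order, and in DKO 2165, against 1028 with only the groups compared. Gys2 in kidneys with Cre rests on 8 to 52 counts a library, which limits its precision.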
